A study of Homo sapiens with 18 samples.

Results

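UGT2B15, UGT2B17 and UGT2B28 are UDP-glucuronosyltransferases, enzymes of the endoplasmic reticulum that join glucuronic acid to steroids. The platform annotation gave these 3 genes 5 of the 54675 probe sets on the array, and these 5 make up the set described here. UGT2B15 had 3 of them (207392_x_at, 216687_x_at and 217175_at), UGT2B17 had 1 (207245_at) and UGT2B28 had 1 (211682_x_at). The rule used the annotation only and no measured value.

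The arrays measured total RNA of LNCaP, a human prostate cancer cell line whose growth depends on androgen, and of LNCaP-abl, a line derived from it that grows without androgen. The 6 groups had 3 arrays each. In LNCaP, TRIM24 siRNA with vehicle was set against control siRNA with vehicle, and TRIM24 siRNA with DHT against control siRNA with DHT. In LNCaP-abl, TRIM24 siRNA with vehicle was set against control siRNA with vehicle. DHT is dihydrotestosterone, the most potent natural androgen, given at 10 nM for 24 h, and the vehicle was ethanol. All cells were transfected for 48 h. Per the labels' protocols LNCaP cells were starved of hormone in medium with charcoal-stripped serum in every group, and the medium of LNCaP-abl is not given separately. TRIM24 is a bromodomain protein that acts as a coactivator of the androgen receptor. LNCaP-abl is a single derived line, so its differences from LNCaP are those of that line.

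Glucuronidation makes a steroid water-soluble and inactive and lets the cell export it. UGT2B15 and UGT2B17 are the main enzymes that conjugate testosterone, DHT and the DHT metabolite androstanediol in the human prostate, and UGT2B28 conjugates androgens with lower activity. In LNCaP cells UGT2B15 and UGT2B17 are known as genes repressed by androgen, so that the hormone lowers the enzymes that inactivate it. The genes lie in 1 cluster and their transcripts are very similar. Probe sets whose names end in _x_at hold probes that match several transcripts, so the paralogs may share signal, and the probe sequences were not analysed here.

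A promoter sequence was at hand for UGT2B15, 1 of the 3 genes. It is shown because the hormone response described next is that of a known androgen-repressed gene. It covers 250 bases before and 50 bases after the RefSeq gene start on the minus strand of GRCh38.p14, chr4:68670603-68670902. Capitals mark the forkhead core TGTTTAC, which reads GTAAACA on this strand, and AGAACA, a single repeat of the androgen response element.
UGT2B15 promoter: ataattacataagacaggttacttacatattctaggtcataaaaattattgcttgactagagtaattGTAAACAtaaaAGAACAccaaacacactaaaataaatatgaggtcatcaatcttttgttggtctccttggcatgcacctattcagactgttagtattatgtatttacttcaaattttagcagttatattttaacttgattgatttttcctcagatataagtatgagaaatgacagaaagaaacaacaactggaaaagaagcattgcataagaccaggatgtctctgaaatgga
The forkhead letters begin at base 68 of the window and AGAACA at base 79, with no overlap. Both strands were searched. AGAACA was present in 14.8% of 34796 promoters of the same length, TGTTTAC in 3.42% and both in 0.655%. The full palindrome of the androgen response element, the HNF1 repeat GTTAAT (in 6.91% of promoters) and the TATA box TATAAA (in 11.6%) were not among these letters. A match describes the letters and not a bound site.

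The median log2 value of an array ranged over 5.83 to 5.93. Within a group, r between arrays was 0.996 to 0.998 over all probe sets. With 3 arrays a group, the number of arrays sets the precision. After knockdown TRIM24 was at 25.1% of its control level in vehicle-treated LNCaP, 22.7% in LNCaP given DHT and 23.6% in LNCaP-abl. KLK3, the androgen-induced gene of prostate-specific antigen, averaged 14.12 with DHT and 8.50 with vehicle at control siRNA. Of the luminal markers 6 of 8 were represented and 4 to 6 had group means at or above 5.88, the median of the table and the filter value used here. The 3 represented basal markers were below 5.88 in every group. So were PTPRC and CDH5 of the 3 represented leukocyte and endothelial markers, while PECAM1 had group means of 6.05 to 6.22. Of the 4 fibroblast markers COL1A1 had means of 7.24 to 7.49, DCN and PDGFRB lay between 5.80 and 6.27, and COL1A2 was below 5.88. Of the liver markers ALB, APOB and SERPINA1 were below it and TTR was not. Separate cultures are not stated for the replicates, and the p-values therefore reflect only how far these arrays differ, which may be technical. In RNA of whole cultures, fewer cells that express a gene and less of its RNA per cell cannot be told apart.

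All 18 arrays of 4 of the 5 probe sets lay at or above 5.88, the lowest value being 8.39, and these 4 were tested. The remaining probe set, 217175_at of UGT2B15, read 3.44 to 5.27 and was not tested with the others. Levels of different probe sets are not compared, since each has its own probes.

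DHT lowered UGT2B15 and UGT2B17 strongly and did not lower UGT2B28. UGT2B15 fell to 17.8% of the vehicle level by probe set 207392_x_at and to 11.7% by 216687_x_at, and UGT2B17 fell to 19.9%. UGT2B28 had a difference of 0.12 that did not pass the test. In LNCaP with control siRNA, 207392_x_at read 10.68, 10.66 and 10.70 with DHT, against 13.21, 13.15 and 13.15 with vehicle. The second UGT2B15 probe set read 8.62, 8.42 and 8.73 with DHT, against 11.70, 11.70 and 11.67 with vehicle. The 3 DHT arrays lay more than 2 log2 units under the lowest vehicle array in both probe sets. UGT2B17 read 8.96, 8.93 and 9.11 with DHT, against 11.45, 11.30 and 11.23 with vehicle, and its arrays were as clearly apart. UGT2B28 read 8.77, 8.67 and 8.78 with DHT, against 8.57, 8.67 and 8.62 with vehicle, and the ranges met at 8.67 after rounding.

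The log2 differences, DHT minus vehicle, were -2.49 ± 0.04 for 207392_x_at (SE, limma adjusted p = 1.01e-16), -3.10 ± 0.08 for 216687_x_at (2.23e-14) and -2.33 ± 0.07 for UGT2B17 (2.56e-13). UGT2B28 differed by 0.12 ± 0.05 (limma adjusted p = 0.0774). Thus 3 of the 4 tested probe sets were called lower and 0 higher, where 21.4% of all 29811 tested probe sets were called lower and 18.4% higher. Both 207392_x_at and 216687_x_at belong to UGT2B15, so such counts are of probe sets and not of separate genes, here and below. By size, 216687_x_at ranked 7, 207392_x_at 20 and UGT2B17 24 among the called falls, of which 49 in the whole table reached 2 log2 units. The UGT2B28 difference was 0.16 and passed (adjusted p = 0.0374) without replicate 2 of the control siRNA with DHT.

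The hormone response had the same direction in knocked-down cells and was smaller for UGT2B15 and UGT2B17. With TRIM24 siRNA, 207392_x_at fell to 29.8% of the vehicle level, a log2 difference of -1.75 ± 0.04. The second UGT2B15 probe set fell to 21.9%, a difference of -2.19 ± 0.08, and UGT2B17 fell to 39.1%, a difference of -1.36 ± 0.07. UGT2B28 rose 1.84-fold with DHT in these cells, by 0.88 ± 0.05 (limma adjusted p = 7.54e-10). All 4 probe sets were called, 3 lower and 1 higher, beside 21.8% and 16.2% of all tested probe sets. UGT2B28 read 9.43, 9.27 and 9.33 with TRIM24 siRNA and DHT, against 8.49, 8.51 and 8.39 with TRIM24 siRNA and vehicle. These 2 groups were separated by more than 0.7 log2 units.

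**Figure D1:**
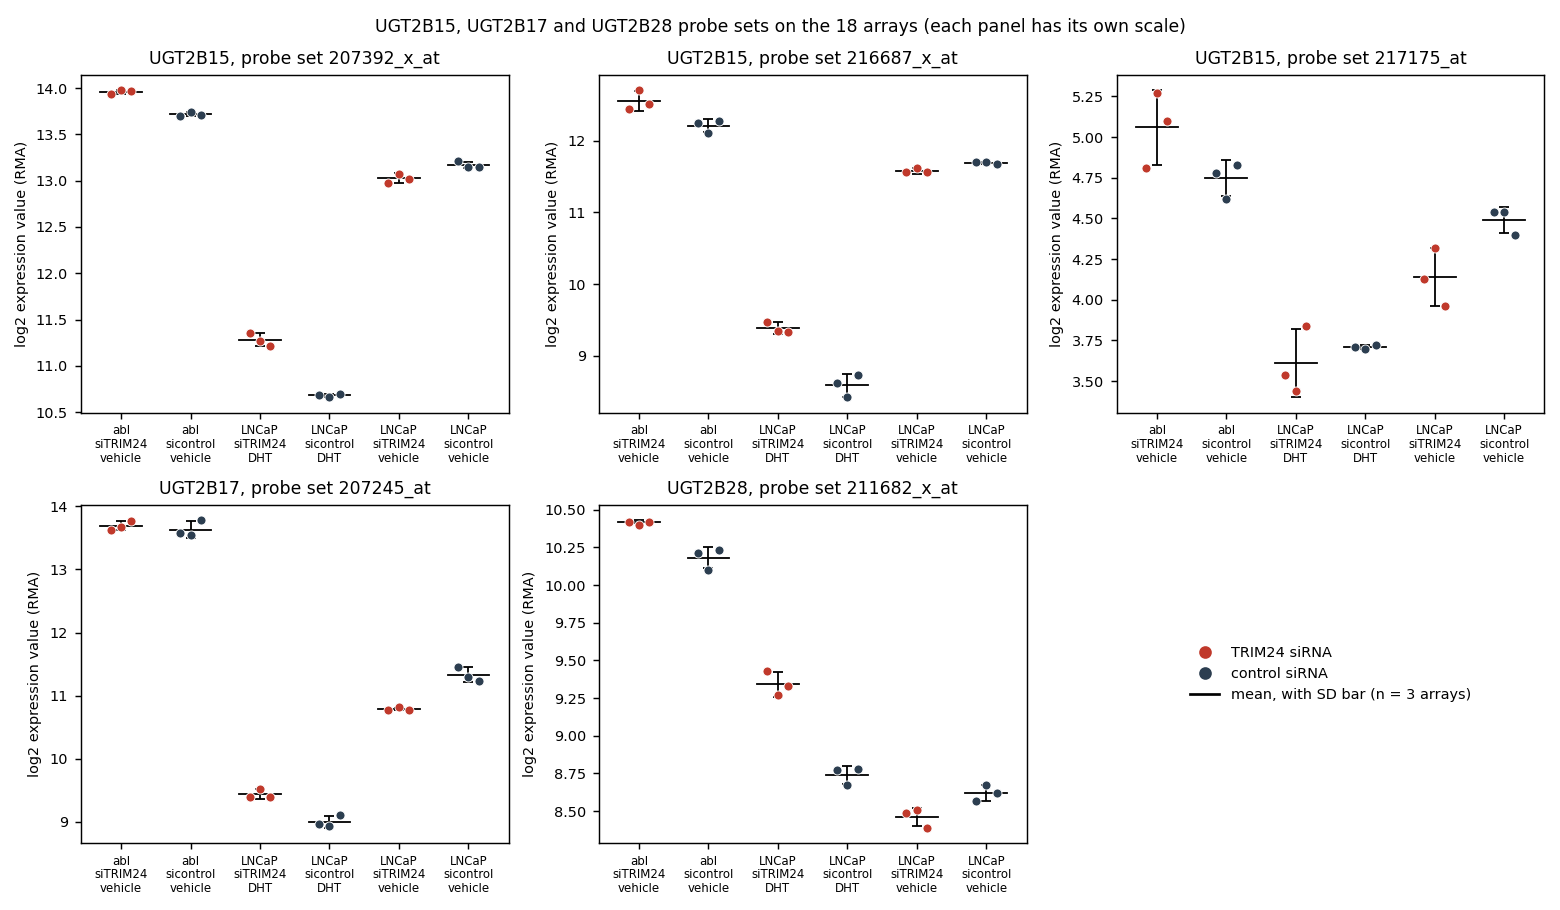
Log2 expression values (y axis) of the 5 probe sets on each of the 18 arrays (points), by group (x axis), with group means as lines and SD as bars; each panel has its own scale. UGT2B15 and UGT2B17 are lowest in LNCaP with DHT and highest in LNCaP-abl, while UGT2B28 is lowest in LNCaP with vehicle.

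TRIM24 knockdown raised every tested UGT2B probe set when DHT was present. UGT2B15 was 1.51-fold higher by 207392_x_at and 1.74-fold by 216687_x_at, UGT2B17 was 1.36-fold higher and UGT2B28 was 1.52-fold higher. In LNCaP with DHT, 207392_x_at read 11.35, 11.27 and 11.21 with TRIM24 siRNA, against 10.68, 10.66 and 10.70 with control siRNA. UGT2B17 read 9.39, 9.53 and 9.39 with TRIM24 siRNA, against 8.96, 8.93 and 9.11 with control siRNA. UGT2B28 read 9.43, 9.27 and 9.33 with TRIM24 siRNA, against 8.77, 8.67 and 8.78 with control siRNA. In each of these, every knockdown array was above every control array.

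The differences, knockdown minus control with DHT, were 0.60 ± 0.04 for 207392_x_at (limma adjusted p = 8.63e-09) and 0.80 ± 0.08 for 216687_x_at (6.86e-07). UGT2B17 differed by 0.44 ± 0.07 (limma adjusted p = 0.000163) and UGT2B28 by 0.60 ± 0.05 (1.7e-07). All 4 were called higher, where 17.2% of tested probe sets were called higher and 18.1% lower. The knocked-down UGT2B15 and UGT2B17 levels stayed under those of the vehicle groups on every array. The ratio of 3′ to 5′ signal of the GAPDH control, a sign of RNA quality, averaged 0.63 with TRIM24 siRNA and 0.56 with control siRNA on the log2 scale, and that of ACTB 2.19 and 1.85. With this signal as a covariate UGT2B17 kept a difference of 0.34 that no longer passed (adjusted p = 0.123), and the other 3 probe sets passed.

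With vehicle the differences were small or in the opposite direction. UGT2B17 fell to 69.1% of the control level, reading 10.78, 10.82 and 10.78 with TRIM24 siRNA against 11.45, 11.30 and 11.23 with control siRNA. Its 2 groups were apart by more than 0.4 log2 units and the knockdown arrays were within 0.1 of each other. The difference was -0.53 ± 0.07 (limma adjusted p = 2.6e-05). UGT2B15 read 12.98, 13.07 and 13.02 by 207392_x_at with TRIM24 siRNA, against 13.21, 13.15 and 13.15 with control siRNA, a difference of -0.14 ± 0.04 (adjusted p = 0.00997). By 216687_x_at it read 11.56, 11.62 and 11.56 with TRIM24 siRNA, against 11.70, 11.70 and 11.67, and the difference of -0.11 ± 0.08 did not pass (adjusted p = 0.302). UGT2B28 differed by -0.16 ± 0.05 (adjusted p = 0.0266).

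In this comparison 3 of 4 probe sets were called lower and 0 higher, beside 15.6% and 18.4% of all tested probe sets. The UGT2B15 call was lost without replicate 1 of TRIM24 siRNA with vehicle (-0.12, adjusted p = 0.0534). Adding the covariate of 3′ to 5′ signal also ended it (-0.10, 0.223). The UGT2B28 call was lost without replicate 3 of that group (-0.12, adjusted p = 0.123) and without replicate 2 or 3 of its control (adjusted p = 0.0954 and 0.0616). It was also lost with no filter (0.0692), with median centring (0.0525) and at a threshold of 0.01. The UGT2B17 call held under every alternative run, with differences between -0.59 and -0.47.

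Whether the knockdown effect differed with hormone was tested directly by the interaction term, which passed for all 4 tested probe sets. The interaction, the knockdown difference with DHT minus that with vehicle, was 0.97 ± 0.10 for UGT2B17 (limma adjusted p = 5.06e-05), 0.76 ± 0.07 for UGT2B28 (2.62e-05), 0.74 ± 0.06 for 207392_x_at (2.98e-06) and 0.91 ± 0.11 for 216687_x_at (0.000144). All 4 probe sets were called higher, beside 3.49% of tested probe sets called higher and 3.36% called lower. Among the 6372 probe sets called lower with DHT at control siRNA, 549 (8.62%) were called higher in this interaction. With the filter raised to 7.71, the 75th percentile of the table, 9.41% of probe sets were called higher. By size of rise the 4 UGT2B probe sets ranked 20, 44, 47 and 24 among all tested probe sets, in the order of the interactions above. UGT2B17 combined a called fall with vehicle and a called rise with DHT, and the same holds for 207392_x_at and UGT2B28, whose falls with vehicle were smaller. These patterns rest on calls that did not hold everywhere: the UGT2B17 rise and the 207392_x_at fall were lost with the covariate, and the UGT2B28 fall under 6 alternatives. The 4 interactions passed under every alternative run. The same number read from the hormone side is the DHT difference with TRIM24 siRNA minus that with control siRNA, for example -1.36 and -2.33 for UGT2B17.

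**Figure D2:**
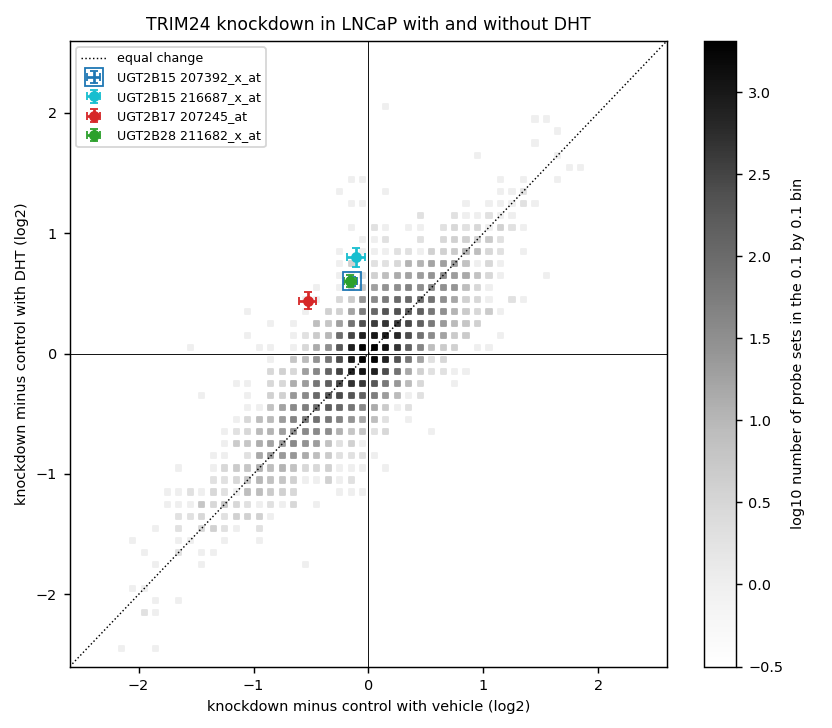
Knockdown minus control in LNCaP with vehicle (x axis) and with DHT (y axis), both as log2 differences, for the tested probe sets counted in squares of 0.1 by 0.1 (grey, darker for more) and for the 4 UGT2B probe sets (coloured, error bars SE). The dotted line marks equal change. The UGT2B15 probe set 207392_x_at (open square) at -0.14 and 0.60 surrounds UGT2B28 at -0.16 and 0.60, and all 4 lie above and to the left of both zero lines' crossing.

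In LNCaP-abl, knockdown raised UGT2B15 and UGT2B28 slightly, and UGT2B17 did not pass the test. By 207392_x_at UGT2B15 read 13.94, 13.98 and 13.97 with TRIM24 siRNA, against 13.70, 13.74 and 13.71 with control siRNA, a difference of 0.25 ± 0.04 (limma adjusted p = 0.000107). By 216687_x_at it read 12.44, 12.71 and 12.51, against 12.25, 12.11 and 12.27, a difference of 0.35 ± 0.08 (0.00205). UGT2B28 read 10.42, 10.40 and 10.42 with TRIM24 siRNA, against 10.21, 10.10 and 10.23, a difference of 0.23 ± 0.05 (0.0018). In these 3 probe sets the groups did not overlap. UGT2B17 read 13.62, 13.68 and 13.77 with TRIM24 siRNA, against 13.57, 13.54 and 13.78 with control siRNA. Its groups overlapped and the difference was 0.06 ± 0.07 (adjusted p = 0.516).

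Thus 3 of 4 probe sets were called higher and 0 lower in LNCaP-abl, beside 16.3% and 24.9% of all tested probe sets. The interaction with cell line, the knockdown difference in LNCaP-abl minus that in LNCaP with vehicle, was 0.39 ± 0.06 for 207392_x_at (limma adjusted p = 0.000174), 0.46 ± 0.11 for 216687_x_at (0.00787), 0.60 ± 0.10 for UGT2B17 (0.000804) and 0.39 ± 0.07 for UGT2B28 (0.00148). All 4 were called higher, beside 6.67% of probe sets called higher and 14.8% called lower. For UGT2B17 this difference came with a fall in LNCaP and a difference of 0.06 in LNCaP-abl. The brightest values of 207392_x_at and UGT2B17 in LNCaP-abl were 13.98 and 13.78, where the array maxima were 14.73 to 14.83. Whether compression of bright signals had a part in these differences was not tested. The 3′ to 5′ GAPDH signal averaged 0.64 with TRIM24 siRNA and 0.56 with control siRNA in LNCaP-abl, and 0.59 and 0.52 in LNCaP with vehicle. The ACTB signal averaged 1.99 and 1.87 in LNCaP-abl, and 2.05 and 1.87 in LNCaP with vehicle, in the same order of siRNA. Its part in these small differences was tested only as a covariate, with which the calls in LNCaP-abl held.

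All 3 genes were higher in LNCaP-abl than in LNCaP, and UGT2B17 by the largest factor among them. With control siRNA and vehicle, UGT2B17 was 4.93-fold higher in LNCaP-abl, UGT2B28 2.95-fold, and UGT2B15 1.46-fold by 207392_x_at and 1.43-fold by 216687_x_at. UGT2B17 read 13.57, 13.54 and 13.78 in LNCaP-abl, against 11.45, 11.30 and 11.23 in LNCaP. UGT2B28 read 10.21, 10.10 and 10.23 in LNCaP-abl, against 8.57, 8.67 and 8.62 in LNCaP. UGT2B15 by 207392_x_at read 13.70, 13.74 and 13.71 in LNCaP-abl, against 13.21, 13.15 and 13.15 in LNCaP. No array of LNCaP-abl overlapped an array of LNCaP. At control siRNA and vehicle, the summed level of the 4 liver markers was 7.23 to 7.55 in LNCaP-abl and 8.88 to 9.03 in LNCaP. That of the luminal markers was 13.02 to 13.09 and 13.53 to 13.54. Of the liver markers only TTR was above the filter value, averaging 6.57 in LNCaP-abl and 8.60 in LNCaP. The part of these markers in the difference between the lines was not tested.

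The line differences were 2.30 ± 0.07 for UGT2B17 (limma adjusted p = 1.02e-13), 1.56 ± 0.05 for UGT2B28 (1.94e-13), 0.55 ± 0.04 for 207392_x_at (4.07e-09) and 0.52 ± 0.08 for 216687_x_at (2.26e-05). All 4 were called higher, beside 28.3% of tested probe sets called higher and 31.4% called lower, since the lines differed at most probe sets. With TRIM24 siRNA in both lines the differences were 2.90 for UGT2B17, 1.95 for UGT2B28, 0.94 for 207392_x_at and 0.98 for 216687_x_at. All 4 were again called higher, beside 29.6% called higher and 36.6% called lower. KLK3, the androgen-induced gene, averaged 5.70 in LNCaP-abl and 8.50 in LNCaP, at control siRNA and vehicle. The LNCaP-abl mean of KLK3 was below the filter value, so nothing is read from its test between the lines. Set against LNCaP with DHT, LNCaP-abl with vehicle had UGT2B17 higher by 4.63 ± 0.07, 24.7-fold. UGT2B15 was 8.21-fold higher by 207392_x_at and 12.3-fold by 216687_x_at in this comparison, and UGT2B28 2.71-fold higher. All 4 were called higher, beside 31.1% called higher and 32.5% called lower.

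**Figure D3:**
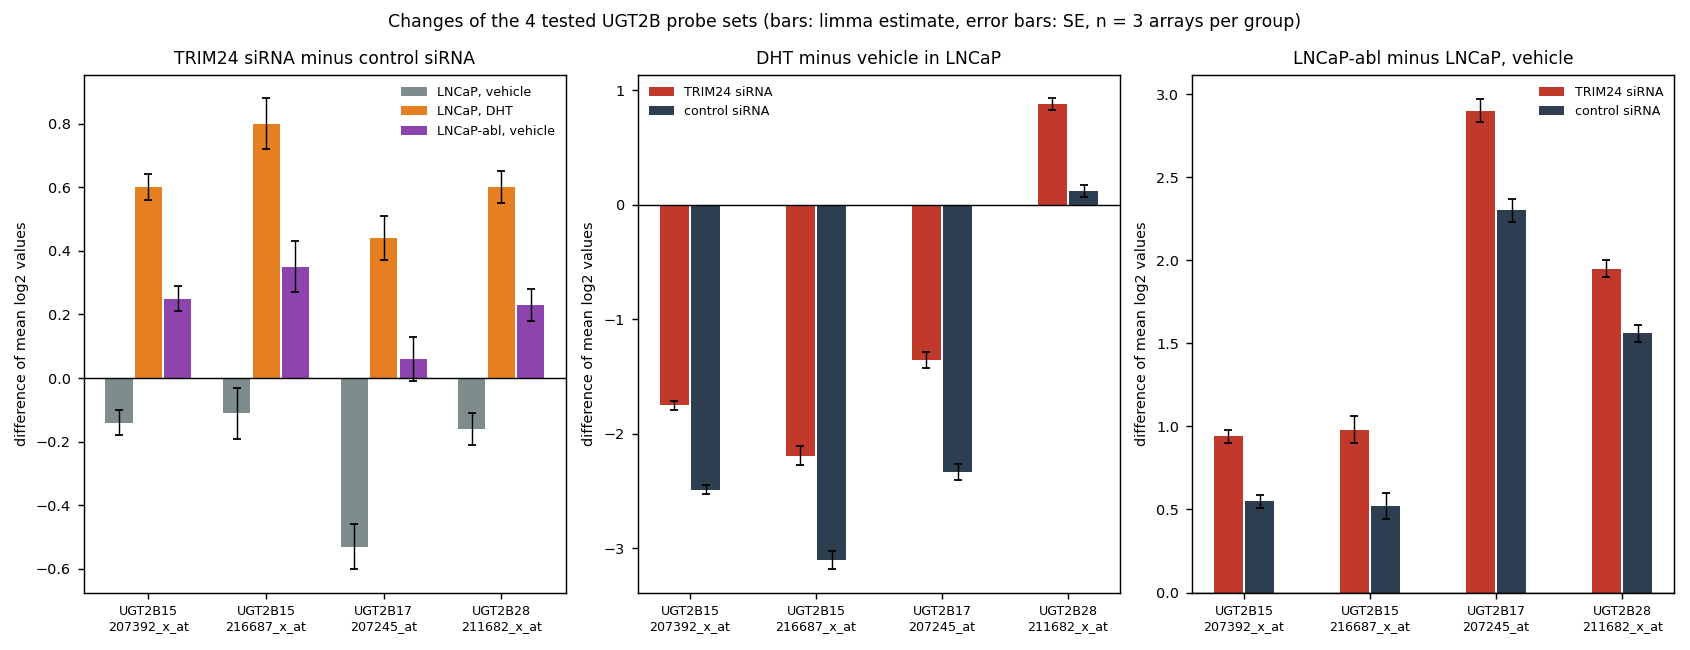
Differences of mean log2 values (y axis; bars, with SE, 3 arrays per group) of the 4 tested probe sets (x axis), for knockdown minus control, DHT minus vehicle and LNCaP-abl minus LNCaP. Knockdown bars point down in LNCaP with vehicle, and up in LNCaP with DHT and in LNCaP-abl with vehicle. DHT bars point down for UGT2B15 and UGT2B17 only, and the bars of LNCaP-abl minus LNCaP are tallest for UGT2B17.

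Put in order of level, UGT2B15 by 207392_x_at ran from LNCaP-abl with TRIM24 siRNA (mean 13.96) through LNCaP-abl with control siRNA (13.72), LNCaP with control siRNA and vehicle (13.17), TRIM24 siRNA and vehicle (13.03) and TRIM24 siRNA and DHT (11.28) to control siRNA and DHT (10.68). No neighbours in this order overlapped. UGT2B17 had the same order of means, at 13.69, 13.63, 11.33, 10.79, 9.44 and 9.00, and only the LNCaP-abl groups overlapped. UGT2B28 had another order: 10.42 and 10.18 in LNCaP-abl with TRIM24 and control siRNA, 9.34 and 8.74 with TRIM24 and control siRNA in LNCaP with DHT, and at the bottom LNCaP with vehicle, where TRIM24 siRNA (8.46) lay below control siRNA (8.62). No neighbours in this order overlapped, though the control siRNA groups with DHT and vehicle meet once rounded. Over the 18 arrays Pearson's r was 1 after rounding between the UGT2B15 probe sets 207392_x_at and 216687_x_at. It was 0.93 between 207392_x_at and UGT2B17, 0.49 between 207392_x_at and UGT2B28, and 0.75 between UGT2B17 and UGT2B28. For 216687_x_at it was 0.91 with UGT2B17 and 0.46 with UGT2B28. These describe 18 arrays in 6 groups and carry no test.

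The dim probe set 217175_at, designed from the same sequence record as 216687_x_at, was fitted in a table with no filter. DHT minus vehicle was -0.78 ± 0.12 with control siRNA (limma adjusted p = 9e-05) and -0.53 with TRIM24 siRNA (0.0033). Knockdown minus control was -0.36 in LNCaP given vehicle (0.0482), -0.10 in LNCaP given DHT (0.664) and 0.31 in LNCaP-abl (0.0703). It read 3.71, 3.70 and 3.72 with DHT, against 4.54, 4.54 and 4.40 with vehicle, at control siRNA. These values lie in the range where changes are compressed. Like the other UGT2B15 probe sets it was lower with DHT, while its knockdown difference with DHT, unlike theirs, did not pass. Its hormone interaction of 0.25 ± 0.17 did not pass either (limma adjusted p = 0.539). The difference between the probe sets was not tested.

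The UGT2B genes lie in a cluster on chromosome 4 in the RefSeq order TMPRSS11E, UGT2B17, UGT2B15, several other UGT2 genes, UGT2B28 and UGT2B4. The neighbours were looked at after their values were seen. TMPRSS11E, a membrane-bound serine protease next to UGT2B17, read 5.20, 5.15 and 5.18 with TRIM24 siRNA and vehicle, against 6.32, 6.16 and 6.24 with control siRNA. With DHT it read 6.83, 6.72 and 6.63 with TRIM24 siRNA, against 6.56, 6.58 and 6.55 with control siRNA. It fell with knockdown in vehicle by 1.06 on the log2 scale (limma adjusted p = 3.11e-09) and differed by 0.16 with DHT (0.0621), and its interaction was 1.23 ± 0.09 (2.98e-06). In LNCaP-abl, where UGT2B15 and UGT2B28 rose with knockdown, it fell by 0.49 (1.51e-05). Unlike UGT2B15 and UGT2B17 it was higher with DHT at control siRNA, by 0.32 (0.000739). It was also higher in LNCaP-abl, by 0.93 ± 0.06 (2.27e-09). YTHDC1, a reader of methylated RNA on the far side of TMPRSS11E, had interactions of 0.06, -0.02, -0.11 and 0.05 in its 4 tested probe sets, with none called. UGT2B4 and UGT2A3 read between 2.59 and 3.87 and were below the filter.

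**Figure D4:**
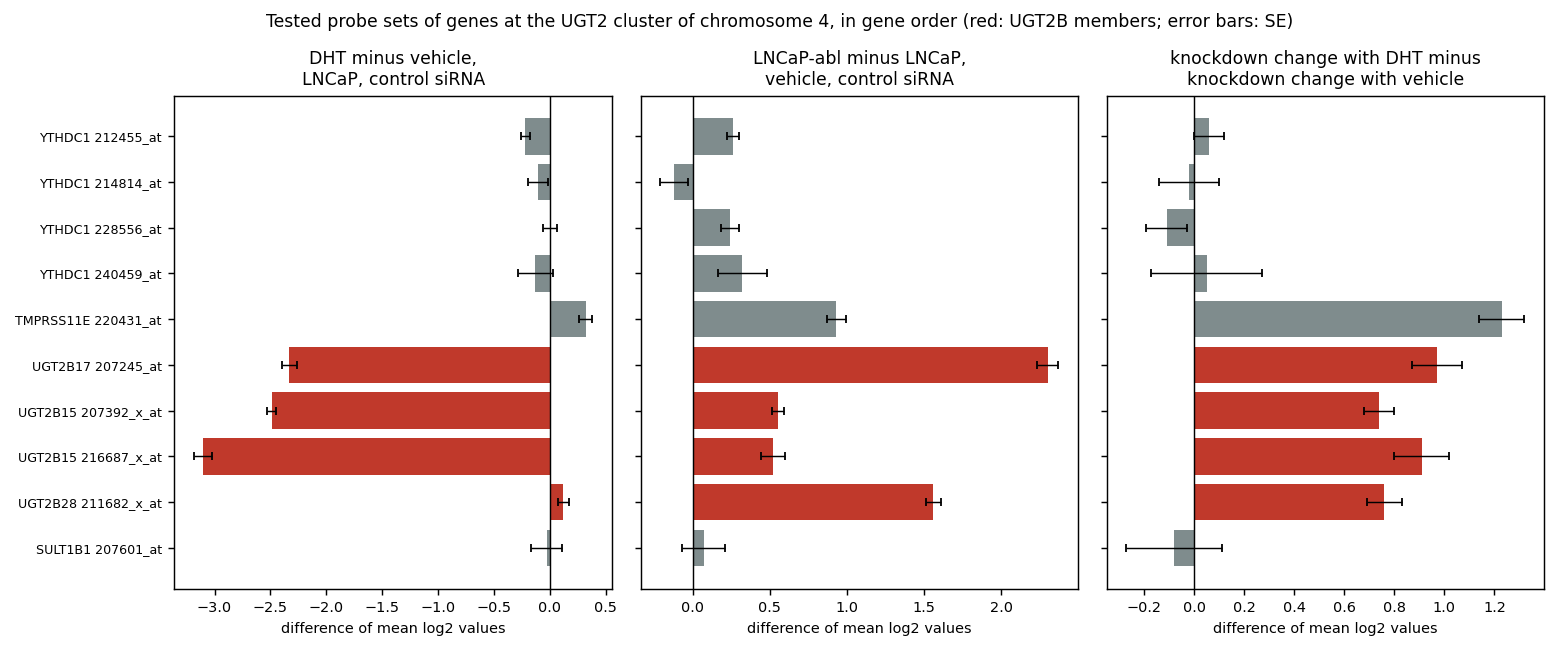
Differences of mean log2 values (x axis; bars, with SE) of the tested probe sets of genes at the UGT2 cluster, listed in gene order (y axis), with UGT2B15, UGT2B17 and UGT2B28 in red. The panels are DHT minus vehicle, LNCaP-abl minus LNCaP and the hormone interaction. TMPRSS11E is at 0.32, 0.93 and 1.23, while the YTHDC1 probe sets lie between -0.11 and 0.06 in the interaction.

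The other genes of the pathway were counted by the brightest probe set of each gene. Of 17 other UGT genes 6 had a probe set of their own and 1 was tested, UGT8, which makes a brain glycolipid and adds galactose. It passed the filter only through LNCaP-abl, where its mean was 10.14, against 4.43 in LNCaP, at control siRNA and vehicle, and nothing is read from its test.

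Genes of glucuronic acid supply and cleavage moved in both directions with DHT. Of 8 tested genes 1 was called higher and 3 lower with DHT at control siRNA, with a median of -0.08, beside 18.7% and 25.2% of 13607 genes and a median of -0.036 over all genes. UGDH, which makes UDP-glucuronic acid, the sugar donor, averaged 11.11 with DHT and 10.48 with vehicle, a difference of 0.63 ± 0.05 (limma adjusted p = 3.5e-08). Thus the donor enzyme rose where UGT2B15 and UGT2B17 fell. GUSB, the lysosomal enzyme that cleaves glucuronides, fell by 0.30 ± 0.04, and UGP2, which makes UDP-glucose, fell by 0.18. With TRIM24 siRNA 2 genes were higher and 3 lower with DHT, beside 16.3% and 25.6%.

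UGDH also rose with knockdown, by 0.47 in LNCaP given vehicle, by 0.41 given DHT and by 0.15 in LNCaP-abl. With vehicle its rise stood beside the UGT2B17 difference of -0.53. In the supply list 2 genes were higher and 1 lower with knockdown in vehicle, beside 19.5% and 17.1% of genes. With DHT 1 was higher and 0 lower, beside 18.5% and 19.9%, and in LNCaP-abl 3 were higher and 0 lower, beside 15.9% and 27.9%. Between the lines 2 were higher and 4 lower in LNCaP-abl, beside 28.6% and 34.1%. Among the lower were GUSB at -0.70 and UGDH at -0.23. Among the higher was SLC35D1, with group means of 5.26 to 5.31 in LNCaP. Its means in LNCaP-abl were 6.22 with control siRNA and 5.98 with TRIM24 siRNA. SLC35D1 passed the filter only through LNCaP-abl, so nothing is read from its test.

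Of 4 tested exporters, 2 rose and 1 fell with DHT at control siRNA, with a median of 0.46, beside 18.7% and 25.2% of all genes and a median of -0.036. ABCC4, an exporter of steroid conjugates, averaged 13.61 with DHT and 12.53 with vehicle, a difference of 1.09 ± 0.05 (limma adjusted p = 4.45e-11). ABCC1, a related exporter, rose by 0.91 ± 0.04. ABCG2, an exporter of drugs and conjugates, averaged 6.56 with DHT and 10.06 with vehicle, a difference of -3.50 ± 0.07 (8.8e-16). In LNCaP-abl, where the UGT2B genes were higher, ABCC4 differed by -2.48, ABCG2 by -2.81 and ABCC1 by -0.78, and 3 of 4 exporters were called lower, with a median of -1.63, beside 34.1% of all genes called lower, 28.6% called higher and a median of -0.02. With knockdown 1 was higher and 1 lower with vehicle, beside 19.5% and 17.1%. With knockdown in DHT 0 were called, beside 18.5% and 19.9%, and in LNCaP-abl 1 was higher and 1 lower, beside 15.9% and 27.9%.

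**Figure D5:**
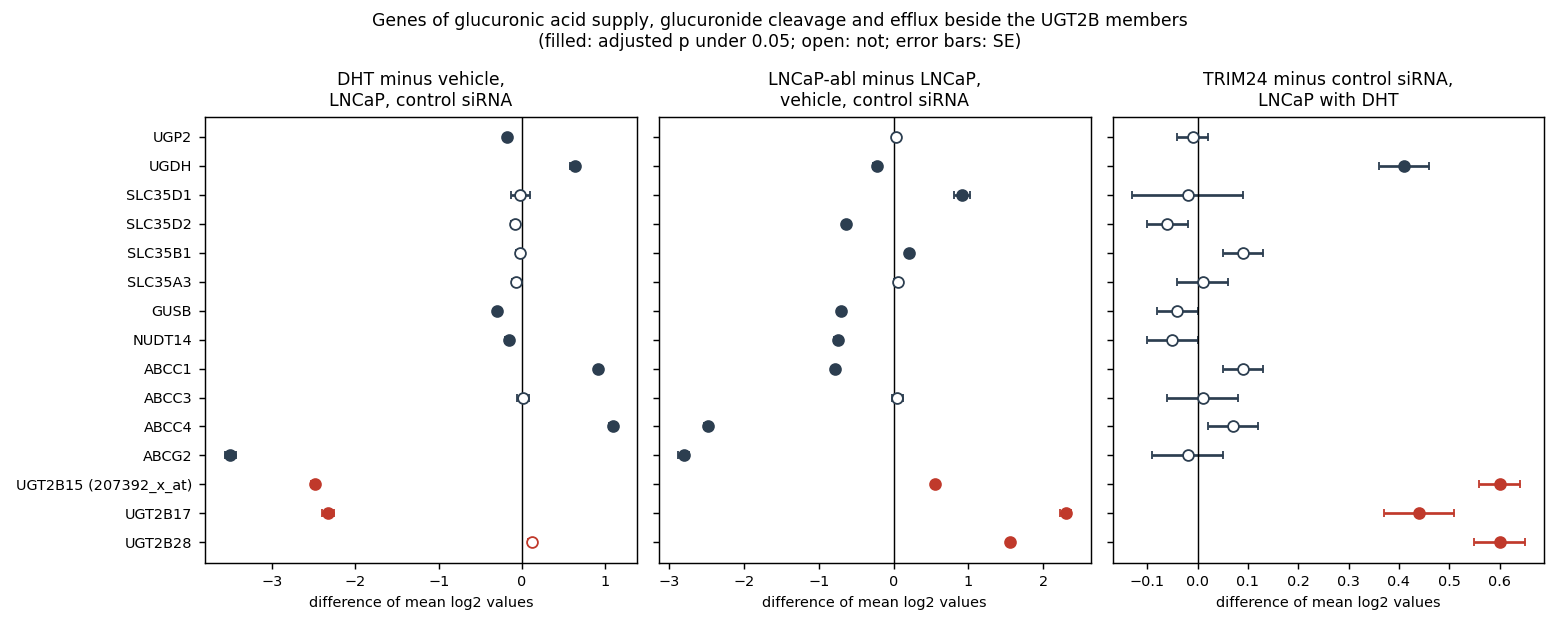
Differences of mean log2 values (x axis; points, with SE; filled where adjusted p was under 0.05) of genes of glucuronic acid supply, glucuronide cleavage and export beside the UGT2B members (y axis), for DHT minus vehicle, LNCaP-abl minus LNCaP, and knockdown minus control with DHT. UGDH, ABCC1 and ABCC4 lie right of 0 with DHT where UGT2B15 and UGT2B17 lie left, and 3 of the 4 exporters lie left of 0 in LNCaP-abl where the UGT2B members lie right.

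Among 24 tested genes of androgen synthesis and interconversion, 4 were higher and 9 lower with DHT at control siRNA, with a median of -0.05. Over all genes the shares were 18.7% higher and 25.2% lower and the median was -0.036. HSD17B11, which oxidises androstanediol, rose by 0.99 ± 0.06, and HSD17B4, of peroxisomal oxidation, rose by 0.43. AKR1C2, which reduces DHT to androstanediol, fell by 0.57 ± 0.08, AKR1C1 by 0.53 and AKR1C3, which makes testosterone, by 0.78. These paralogs are near-identical and may share signal. Knockdown raised 4 and lowered 4 with vehicle, beside 19.5% and 17.1% of all genes. It raised 7 and lowered 4 with DHT, beside 18.5% and 19.9%, and raised 7 and lowered 3 in LNCaP-abl, beside 15.9% and 27.9%. SRD5A1, the reductase that makes DHT from testosterone, rose in all 3 comparisons, by 0.53 ± 0.05 in LNCaP given vehicle, by 0.38 ± 0.05 given DHT and by 0.34 ± 0.05 in the LNCaP-abl line.

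Between the lines 9 of these genes were higher, HSD17B6 among them, and 11 lower in LNCaP-abl, with a median of -0.17. Over all genes 28.6% were higher and 34.1% lower, with a median of -0.02. The higher count also holds RDH5, with group means of 5.41 to 5.70 in LNCaP and of 5.91 and 5.98 in LNCaP-abl. Of the lower genes, CYP3A5 and AKR1C3 had LNCaP-abl means of 4.91 and 5.71 at control siRNA, below the filter value. RDH5, CYP3A5 and AKR1C3 thus passed the filter through the line where they were higher, and nothing is read from their tests between the lines. In LNCaP-abl AKR1C2 differed by -2.02 ± 0.08, AKR1C1 by -2.01 and SRD5A1 by -1.23, all called. SRD5A2, the other reductase that makes DHT, averaged 6.13 in LNCaP-abl and 5.88 in LNCaP. Its LNCaP group means were 5.65 to 5.88, after rounding no higher than the filter value, so nothing is read from its test. HSD17B6, which oxidises androstanediol back to DHT, averaged 6.69 in LNCaP-abl and 5.57 in LNCaP. Like UGT8 it was below the filter value in all LNCaP groups and passed only through LNCaP-abl, so nothing is read from its test.

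Sulfation, the other conjugation route for steroids, had 5 tested genes. With DHT at control siRNA 1 was higher and 0 lower, beside 18.7% and 25.2% of all genes. It was STS, the sulfatase that removes sulfate, by 0.43 ± 0.05. Knockdown raised PAPSS1, which makes the sulfate donor, by 0.46 ± 0.04 with vehicle and 0.49 ± 0.04 with DHT. In LNCaP-abl 1 was higher and 3 were lower than in LNCaP, beside 28.6% and 34.1% of all genes. SULT1A1, a sulfotransferase, averaged 8.18 in LNCaP-abl and 9.83 in LNCaP, a difference of -1.66 ± 0.05, and STS differed by -1.29, also called.

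Of 9 tested transcription factors linked to UGT2B genes, TRIM24 itself among them, 2 were higher and 1 lower with DHT at control siRNA, beside 18.7% and 25.2% of all genes. With knockdown 2 were higher and 1 lower in vehicle, beside 19.5% and 17.1%, and 1 higher and 2 lower with DHT, beside 18.5% and 19.9%. In LNCaP-abl 0 were higher and 3 lower, beside 15.9% and 27.9%, and each count of lower genes with knockdown holds TRIM24. FOXA1, a forkhead factor of the luminal prostate, differed by 0.01 with DHT at control siRNA. With knockdown it averaged 10.97 with TRIM24 siRNA and 11.12 with control siRNA in LNCaP with DHT, a difference of -0.14 ± 0.05 (limma adjusted p = 0.0406). In LNCaP-abl FOXA1 was lower with knockdown, at -0.25 ± 0.05 (0.00106). VDR, the vitamin D receptor, fell by 0.33 with DHT at control siRNA. Between the lines, at control siRNA and vehicle, 3 of the 9 were higher and 2 lower in LNCaP-abl, beside 28.6% and 34.1% of all genes. The lower count holds AHR, the dioxin receptor, which averaged 4.75 in LNCaP-abl and 7.38 in LNCaP. The higher count holds CDX2, which averaged 6.14 in LNCaP-abl and 5.77 in LNCaP. Each lay below the filter value in 1 line, so nothing is read from these tests of AHR and CDX2.

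The genes most like UGT2B15 were found by Pearson's r with 207392_x_at over the 18 arrays, among 3557 genes whose group means spanned at least 1 log2 unit. The closest were MANEA at 0.994, LRRN1 at 0.993, COLEC12 and SERINC3 at 0.990, PARP8 and LOC102546299 at 0.989, ABCA1 at 0.988 and TMEM184C at 0.987. These values reflect group means shared by all 18 arrays and carry no test. MANEA averaged 10.29 with DHT and 12.51 with vehicle at control siRNA, and 12.80 with TRIM24 siRNA and vehicle. Its knockdown difference with vehicle was thus above 0, where that of 207392_x_at was -0.14. Its hormone interaction was 0.23 (limma adjusted p = 0.0265), against 0.74 for UGT2B15, and the other 7 had interactions up to 0.27 that did not pass.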

How the data were processed

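Total RNA of LNCaP and LNCaP-abl cells was measured on 18 one-colour Affymetrix arrays, 3 for each of 6 groups taken from the labels. The deposited log2 values were taken without further scaling; per the submitters' processing notes the authors made them with RMA. Because RMA gives all arrays a common distribution, a shift of most transcripts together would be removed. Its version is not given in the sources used here. Probe sets were named from the platform annotation, with symbols updated through RefSeq gene identifiers: 41097 probe sets had 1 symbol, 1801 several and 11777 none.

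Every probe set whose third-highest value reached 5.88, the table median, was tested, 29811 in all. With limma 3.58.1 under R 4.3.3, a model with 1 mean per group was fitted to all 18 arrays, leaving 12 residual degrees of freedom, with Benjamini-Hochberg adjustment over all tested probe sets of each comparison. A probe set was called at an adjusted p under 0.05, and all tests were two-sided. Lists used the brightest probe set of each gene.

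The members, lists and tests were chosen with earlier results of these data known. Besides the members, TRIM24 and KLK3, the naming rule took up to 4 called genes with the smallest adjusted p per list and comparison, and the 8 most similar genes. The text names a selection. List members named with values that did not pass, and the cluster neighbours, were chosen after their values were seen. Replicate numbers did not pair the arrays: deviations of same-numbered arrays correlated between -0.28 and 0.16 over 24 pairs.

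On data simulated from the real group means, with 100 of 29811 probe sets changed per size, the fit for knockdown in LNCaP with DHT recovered 32 at a log2 change of 0.25 and 85 at 0.5. For knockdown in LNCaP-abl it recovered 37 and 80. A far larger share was called in the real comparisons, 35.3% with DHT and 41.2% in LNCaP-abl. The adjustment was thus stricter in the simulation, and recovery under the real one was not measured. The alternatives were other filters, scalings, variance models, array weights, probe set choices and thresholds, a covariate of 3′ to 5′ signal, the replicate block and leaving out each array.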

Additional observations from a re-analysis of the deposited data

Results flagged for a closer look

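The knockdown effect on each of the 4 tested UGT2B probe sets differed between hormone conditions by the interaction test. The difference with DHT minus that with vehicle was 0.97 for UGT2B17, with knockdown differences of 0.44 with DHT and -0.53 with vehicle. It was 0.76 for UGT2B28, from 0.60 with DHT and -0.16 with vehicle. For UGT2B15 it was 0.74 by 207392_x_at, from 0.60 with DHT and -0.14 with vehicle, and 0.91 by 216687_x_at, from 0.80 with DHT and -0.11 with vehicle.

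The knockdown effect also differed between the lines. The difference in LNCaP-abl minus that in LNCaP with vehicle was 0.60 for UGT2B17, 0.39 for UGT2B28, 0.39 for UGT2B15 by 207392_x_at and 0.46 by 216687_x_at. The 2 interactions share the arrays of LNCaP with vehicle. No cause of these differences was tested.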

How the results depend on the processing

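No UGT2B value reversed its direction under any alternative. Of 460 values under alternatives that kept all arrays, 452 kept their call, 3 gained it and 5 lost it, and of 720 values with 1 array left out these were 715, 1 and 4. UGT2B28 with knockdown in vehicle lost its call with no filter (adjusted p = 0.0692), with centring (-0.15, 0.0525) and at a threshold of 0.01. UGT2B28 with DHT at control siRNA gained a call with the stricter filter (0.0418), with centring (0.15, 0.0472) and with trended, robust variances (0.0455). UGT2B15 by 207392_x_at with knockdown in vehicle lost its call with the 3′ to 5′ covariate (-0.10, adjusted p = 0.223). The cause was not tested. As the replicate numbers share only a number, the replicate block is given once: with it 3, 4 and 3 probe sets were called for knockdown with vehicle, with DHT and in the LNCaP-abl line, as without it. With the block, 3 and 4 were called for DHT with control and TRIM24 siRNA, 4 in each line comparison and 4 in each interaction.

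The share of all probe sets called moved more. With no filter, which adds dim probe sets, it was 16.7% against 34.0% for knockdown in LNCaP with vehicle, 17.1% against 35.3% with DHT and 21.8% against 41.2% in LNCaP-abl. It was 21.1% against 39.8% and 19.7% against 38.0% for DHT with control and TRIM24 siRNA. For LNCaP-abl against LNCaP with vehicle it was 36.5% against 59.7% at control siRNA and 43.0% against 66.2% at TRIM24 siRNA, and 40.3% against 63.6% beside LNCaP with DHT. For the interactions it was 1.8% against 6.86% with hormone and 8.61% against 21.5% with line. With the stricter filter it was 54.6%, 56.7%, 60.3% and 58.8% for knockdown with vehicle, knockdown with DHT, and DHT at control and at TRIM24 siRNA, and 19.4% and 39.7% for the interactions. The hormone interaction also moved to 11.1% over brightest probe sets, 10.4% with array weights and 2.62% at 0.01, and the line interaction to 10.9% at 0.01. Knockdown with DHT moved to 16.3% with the covariate.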

Other observations

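Within groups, the deviations of the arrays from their group mean correlated at 0.43 between the UGT2B15 probe sets 207392_x_at and 216687_x_at. The highest value, 0.60, was between 216687_x_at and UGT2B28, probe sets of different genes. UGT2B17 had 0.40 with 216687_x_at, 0.21 with 207392_x_at and 0.07 with UGT2B28, and 207392_x_at had 0.21 with UGT2B28. Over all arrays, group differences included, r was 1 after rounding between 207392_x_at and 216687_x_at. It was 0.93 between 207392_x_at and UGT2B17 and 0.75 between UGT2B17 and UGT2B28. These correlations describe 18 arrays and carry no test. With the 3 UGT2B15 probe sets averaged, the knockdown difference was -0.20 with vehicle and 0.43 with DHT, and the DHT difference at control siRNA was -2.12.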
